A study of Danio rerio with 12 samples.

Results

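Expression of 10 pigment cell and melanin synthesis genes was followed in whole zebrafish embryos of the AB strain, wild type by their labels. The 10 genes were chosen by symbol in the deposited table of gene counts, where each symbol belonged to 1 identifier, and they are 10 of 32520 genes in that table. All 10 had enough counts to be tested. The embryos were collected at 3 days after fertilisation, and exposure had begun 2 to 4 hours after fertilisation. Of 4 groups, the first received EGCG (epigallocatechin gallate, a tea polyphenol) at 100 µM together with 30 µM testosterone, the second 30 µM testosterone with 5 µM calindol, the third 30 µM testosterone alone, and the last the solvent, 0.1% dimethyl sulfoxide (DMSO). The study describes EGCG as a strong and calindol as a weak antagonist of GPRC6A, a membrane receptor, and asked which genes testosterone changes through it. Each group held 3 libraries, 1 each from clutches 1, 2 and 4. No group received EGCG or calindol without testosterone, so what either does alone cannot be told apart from what it does to the testosterone response. The number of embryos in a library is not given in the sources used here.

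Black pigment in the zebrafish embryo is made by melanophores, which arise from the neural crest, and by the retinal pigment epithelium at the back of the eye. In both, melanin is built inside the melanosome, a lysosome-related organelle. Transcription factors of the MITF family switch on the genes of this organelle, enzymes of the tyrosinase family turn tyrosine into melanin, Pmel fibrils give it a scaffold to settle on, and transporters in the organelle membrane set its ion content and acidity. Xanthophores, which hold yellow pteridines and carotenoids, and iridophores, which hold reflecting purine crystals, are the other pigment cells of the embryo.

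The libraries held 8181295 to 22510680 counts, with the lowest total in testosterone with EGCG of clutch 1. Levels are in CPM, counts scaled to a common library size after correction for composition, and are listed in the order of clutches 1, 2 and 4. In these whole-embryo libraries fewer cells of a type and less RNA per cell cannot be told apart, and neither can melanophores and retinal pigment epithelium for the genes that both use. In each library 0.0434% to 0.0908% of all counts fell on the 10 genes. Summed markers of skeletal muscle, lens, liver and photoreceptors were above 0 in every library, although the muscle markers ckma and mylpfa had 0 to 2 counts in each.

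By the group mean of their summed level, the pigment genes stood highest with testosterone and calindol and lowest with testosterone and EGCG. Most of this sum came from tyrp1b and pmela. Their summed level was 493.9, 425.8 and 541.0 CPM with testosterone and EGCG, 967.0, 794.0 and 778.2 CPM with testosterone and calindol, 703.1, 784.3 and 598.0 CPM with testosterone, and 570.8, 524.8 and 536.9 CPM in DMSO. In this sum all 3 testosterone libraries and all 3 calindol libraries lay above every DMSO library, whereas the EGCG libraries overlapped the DMSO range. By group mean, 8 of the 10 genes were highest with testosterone and calindol, and 2 with testosterone alone. The lowest mean was with testosterone and EGCG for 8 genes and in DMSO for the other 2, tfec and slc45a2. For 7 genes the order was the same throughout, with calindol above testosterone alone, then DMSO, then EGCG. This is an order of means, and how many of all genes share it was not counted. For mitfa, dct, oca2 and slc24a5, among the 7, the testosterone libraries overlapped those of calindol and those of DMSO.

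**Figure D1:**
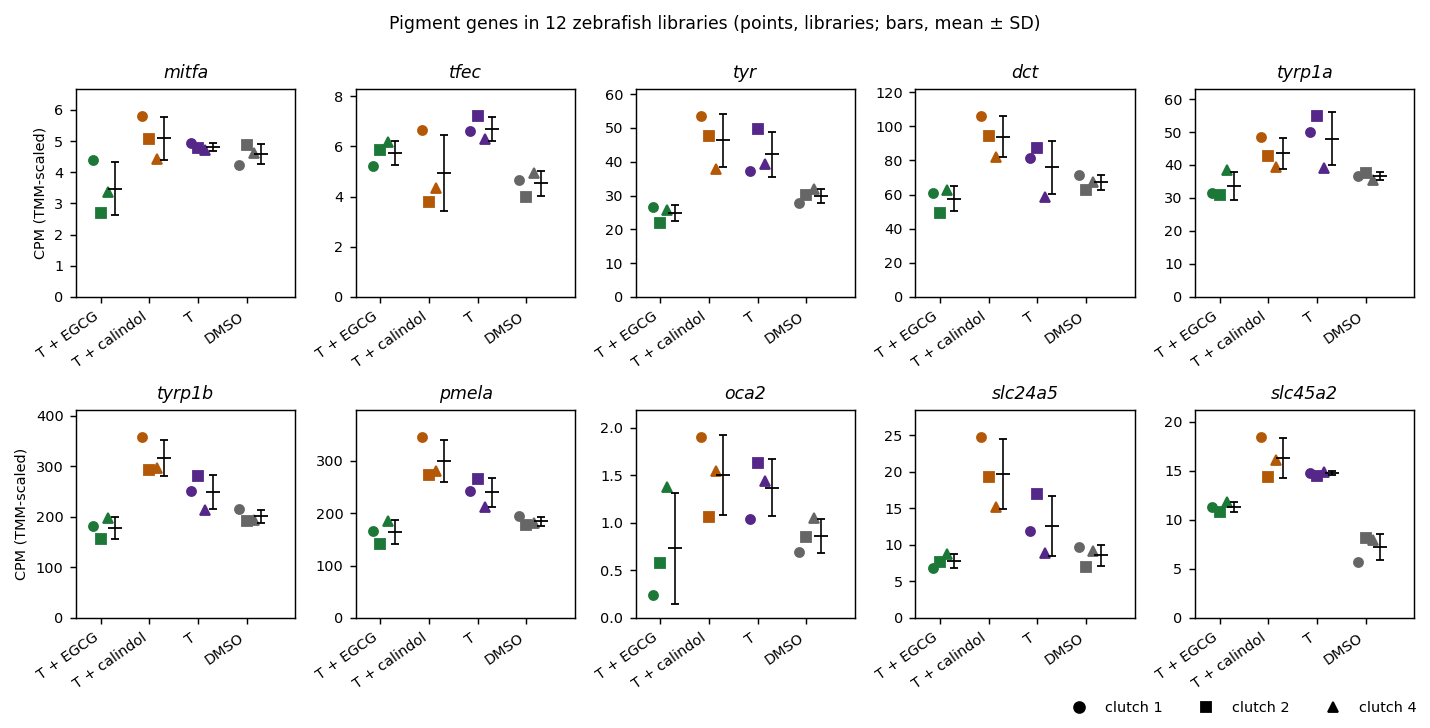
CPM of each of the 10 pigment genes (vertical axes, linear from 0) in the 4 groups (T, testosterone); each point is 1 library, its shape the clutch, and the bars give the mean ± SD of 3 libraries. For tyr, tyrp1b and pmela all 3 calindol libraries lie above all 3 EGCG libraries, and for slc45a2 all 9 exposed libraries lie above the 3 DMSO libraries.

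Both transcription factor genes belong to the MITF family. The gene mitfa (ENSDARG00000003732) encodes the MITF factor that zebrafish need to form melanophores. It had 4.39, 2.68 and 3.36 CPM with testosterone and EGCG, 5.80, 5.06 and 4.42 CPM with testosterone and calindol, 4.94, 4.77 and 4.72 CPM with testosterone, and 4.23, 4.88 and 4.62 CPM in DMSO. The EGCG libraries lay below every calindol and every testosterone library, and the other 3 groups overlapped. The gene tfec (ENSDARG00000098745) encodes a related factor used in zebrafish by iridophores and the retinal pigment epithelium. It had 5.22, 5.86 and 6.17 CPM with testosterone and EGCG, 6.67, 3.80 and 4.36 CPM with testosterone and calindol, 6.61, 7.21 and 6.29 CPM with testosterone, and 4.66, 3.98 and 4.95 CPM in DMSO. Both the testosterone and the EGCG libraries lay above every DMSO library, and the calindol libraries were spread from 3.80 to 6.67 CPM, with clutch 1 among the testosterone libraries.

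Of the 4 enzyme genes, tyr (ENSDARG00000039077) encodes tyrosinase, which carries out the first and rate-limiting step of melanin synthesis. It had 26.7, 22.0 and 25.8 CPM with testosterone and EGCG, 53.5, 47.6 and 37.8 CPM with testosterone and calindol, 37.4, 49.8 and 39.4 CPM with testosterone, and 27.8, 30.1 and 31.8 CPM in DMSO. The testosterone and calindol libraries overlapped each other and lay above all DMSO libraries, and the EGCG libraries lay below all of them. The gene dct (ENSDARG00000006008) encodes dopachrome tautomerase, which acts after tyrosinase. It had 61.0, 49.2 and 62.4 CPM with testosterone and EGCG, 106, 94.2 and 81.8 CPM with testosterone and calindol, 81.6, 87.6 and 58.5 CPM with testosterone, and 71.6, 62.5 and 67.3 CPM in DMSO. The testosterone libraries straddled the DMSO range, with clutch 4 below it.

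The genes tyrp1a (ENSDARG00000029204) and tyrp1b (ENSDARG00000056151) are the paired zebrafish copies of the gene for tyrosinase-related protein 1. The copy tyrp1b had 181, 155 and 197 CPM with testosterone and EGCG, 357, 293 and 297 CPM with testosterone and calindol, 251, 281 and 214 CPM with testosterone, and 216, 192 and 194 CPM in DMSO. Its calindol libraries lay above all other libraries. The copy tyrp1a had 31.4, 31.0 and 38.4 CPM with testosterone and EGCG, 48.6, 42.7 and 39.4 CPM with testosterone and calindol, 49.9, 54.8 and 39.2 CPM with testosterone, and 36.8, 37.7 and 35.5 CPM in DMSO. Here the calindol libraries stood within the range of the testosterone libraries. Reads that fit both copies could be split between them, since the treatment of reads with several matches is not given in the sources used here.

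The gene pmela (ENSDARG00000091298) encodes the protein whose amyloid fibrils carry melanin. It had 166, 141 and 186 CPM with testosterone and EGCG, 345, 273 and 281 CPM with testosterone and calindol, 243, 266 and 211 CPM with testosterone, and 194, 178 and 181 CPM in DMSO. Like tyrp1b, it was higher in every calindol library than in any library of the other groups.

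Of the 3 transporter genes, slc24a5 (ENSDARG00000024771) encodes a potassium-dependent sodium and calcium exchanger, the gene changed in golden zebrafish. It had 6.87, 7.65 and 8.75 CPM with testosterone and EGCG, 24.7, 19.2 and 15.1 CPM with testosterone and calindol, 11.9, 16.9 and 8.82 CPM with testosterone, and 9.63, 6.90 and 9.09 CPM in DMSO. The calindol libraries lay above all DMSO libraries, and the testosterone library of clutch 4 lay inside the DMSO range. The gene slc45a2 (ENSDARG00000002593) encodes a melanosome membrane transporter whose loss gives albino fish. It had 11.3, 10.8 and 11.8 CPM with testosterone and EGCG, 18.4, 14.4 and 16.1 CPM with testosterone and calindol, 14.8, 14.5 and 14.9 CPM with testosterone, and 5.71, 8.12 and 7.90 CPM in DMSO. All 9 exposed libraries lay above the DMSO libraries, those with EGCG included.

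The third transporter gene, oca2 (ENSDARG00000061303), encodes an anion channel protein of the melanosome, and rested on few counts. It had 2, 9 and 25 counts with testosterone and EGCG, 35, 21 and 25 counts with testosterone and calindol, 13, 30 and 33 counts with testosterone, and 13, 16 and 22 counts in DMSO. In CPM these were 0.237 to 1.38 with EGCG, 1.06 to 1.90 with calindol, 1.04 to 1.63 with testosterone, and 0.688 to 1.05 in DMSO. It passed the threshold in none of the 6 comparisons, with an adjusted p of 0.134 to 0.893 and 0 comparisons at an unadjusted p under 0.05 with edgeR and 0 calls with DESeq2, so no difference was detectable at this depth.

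The comparison of testosterone with DMSO asks what testosterone alone changed. Of the 10 genes, 2 rose, slc45a2 and tyr, at an adjusted p under 0.05, beside 2.93% of all 20237 genes tested that rose by the same rule (3.39% fell, and 6.32% passed in either direction). All 10 log2 fold changes were above 0, from 0.07 for mitfa to 1.02 for slc45a2, with a median of 0.44 beside a median of 0.00 over all genes tested. For 5 genes every testosterone library lay above every DMSO library, beside 13.4% of all genes. Of all genes with a mean of 10 to 100 CPM, the range of slc45a2 and tyr, 3.62% rose and 3.4% fell. The gene slc45a2 averaged 14.7 ± 0.207 CPM with testosterone and 7.24 ± 1.33 CPM in DMSO (SD, n = 3 each), a 2.03-fold difference (adjusted p 0.000555, log2 fold change 1.02, SE 0.14). It passed in all 18 alternative fits. The gene tyr averaged 42.2 ± 6.62 CPM with testosterone and 29.9 ± 2.02 CPM in DMSO (adjusted p 0.0371, log2 fold change 0.50, SE 0.13).

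The call for tyr depended on single libraries. Its adjusted p was 0.15, 0.102 and 0.0781 without the DMSO library of clutch 1, 2 or 4, 0.136 without the testosterone library of clutch 2, and 0.0635 with clutch as a block. Conversely, 5 genes passed without the testosterone library of clutch 4, the lowest of its group in most pigment genes. Just past the threshold on the other side, pmela averaged 240 ± 27.7 CPM with testosterone and 184 ± 8.51 CPM in DMSO, 0.38 on the log2 scale (adjusted p 0.0567, SE 0.11). It passed in 7 of 18 alternative fits, among them the DESeq2 test (adjusted p 0.0152), no filter (0.0324) and only the 6 libraries compared (0.0277). The values for tyrp1a, tyrp1b, slc24a5 and tfec were 0.39, 0.31, 0.55 and 0.56 on the log2 scale, with adjusted p 0.0787, 0.12, 0.186 and 0.128. With the DESeq2 test tyrp1a passed too (adjusted p 0.0432). For mitfa and dct the 95% intervals of the log2 fold change were −0.35 to 0.49 and −0.12 to 0.47.

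**Figure D2:**
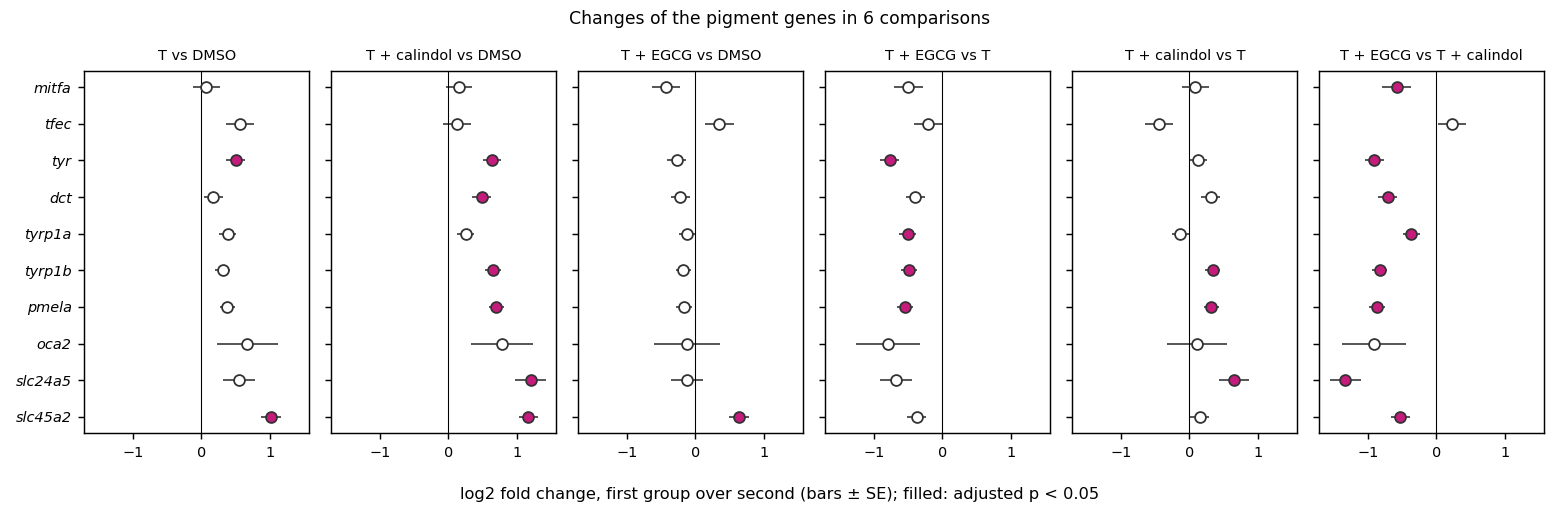
Log2 fold change of each pigment gene (horizontal axis, first group over second, bars ± SE) in the 6 comparisons (T, testosterone); filled points passed an adjusted p under 0.05 over all genes. The points for slc45a2 lie right of 0 in all 3 comparisons with DMSO, and 8 of the 10 points are filled and left of 0 for EGCG against calindol.

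The comparison of testosterone and calindol with DMSO gave more calls. Of the 10 genes, 6 rose, namely tyr, dct, tyrp1b, pmela, slc24a5 and slc45a2, beside 11.5% of all genes tested that rose (27.4% passed in either direction). Of genes with a mean of at least 100 CPM, which include tyrp1b and pmela, 23.8% rose and 28.4% fell. At 10 to 100 CPM, the range of the others called, 14.9% rose and 21.6% fell. The 10 log2 fold changes ran from 0.13 for tfec to 1.20 for slc24a5, with a median of 0.64 beside 0.01 over all genes. For 8 genes every calindol library lay above every DMSO library, beside 20.3% of all genes (for 22.7% they lay below). The transporter genes slc24a5 and slc45a2 had the largest values, with slc24a5 at 19.7 ± 4.83 CPM with testosterone and calindol and 8.54 ± 1.45 CPM in DMSO (adjusted p 0.00108, log2 fold change 1.20, SE 0.23). The gene slc45a2 averaged 16.3 ± 2.02 CPM with testosterone and calindol and 7.24 ± 1.33 CPM in DMSO (adjusted p 4.76e-05, log2 fold change 1.17, SE 0.14).

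The scaffold gene pmela averaged 300 ± 39.2 CPM with testosterone and calindol and 184 ± 8.51 CPM in DMSO, a 1.63-fold difference (adjusted p 0.000336, log2 fold change 0.70, SE 0.11). For tyrp1b the log2 fold change was 0.65 (SE 0.11, adjusted p 0.000558), and for tyr 0.63 (SE 0.13, adjusted p 0.00242). That of dct was 0.49 (SE 0.14, adjusted p 0.0157), and its call was lost without the DMSO library of clutch 2 (adjusted p 0.0667) or the calindol library of clutch 1 (0.0584). The other enzyme copy, tyrp1a, differed by 0.25 on the log2 scale (adjusted p 0.146, SE 0.12), although its 3 calindol libraries lay above the DMSO libraries. The factor genes mitfa and tfec had log2 fold changes of 0.16 and 0.13, with 95% intervals of −0.26 to 0.57 and −0.32 to 0.57.

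In testosterone and EGCG against DMSO, 1 of the 10 genes rose, slc45a2, beside 7.69% of all genes tested (17% passed in either direction, 9.33% lower). It averaged 11.3 ± 0.506 CPM with testosterone and EGCG and 7.24 ± 1.33 CPM in DMSO (adjusted p 0.00959, log2 fold change 0.64, SE 0.15), and passed in all 18 alternative fits. Of all genes with a mean of 10 to 100 CPM, the range of slc45a2, 10.3% rose and 10.4% fell. The median log2 fold change of the 10 genes was −0.14, beside 0.00 over all genes. For tyr and dct every EGCG library lay below every DMSO library (21.6% of all genes did so), at −0.27 and −0.22 on the log2 scale (adjusted p 0.184 and 0.287). When the fit held only these 6 libraries tyr passed as lower (adjusted p 0.0343). The 95% intervals of pmela, tyrp1b and tyrp1a were −0.40 to 0.08, −0.41 to 0.06 and −0.39 to 0.15 on the log2 scale. For tfec every EGCG library lay above every DMSO library (21.4% of all genes did so), with a log2 fold change of 0.35 and an adjusted p of 0.265.

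With EGCG added to testosterone, 4 of the 10 genes fell against testosterone alone, tyr, tyrp1a, tyrp1b and pmela, beside 5.59% of all genes tested that fell (6.05% rose, and 11.6% passed in either direction). All 10 log2 fold changes were below 0, from −0.80 for oca2 to −0.21 for tfec, with a median of −0.50 beside −0.02 over all genes. For 8 genes every EGCG library lay below every testosterone library, beside 15.9% of all genes. The share of calls over all genes depended on level. Of genes with a mean of at least 100 CPM, which include tyrp1b and pmela, 16.4% fell and 11.1% rose. At 10 to 100 CPM, the range of tyr and tyrp1a, 7.21% fell and 8.65% rose. The comparison shares its testosterone libraries with that of testosterone against DMSO. The gene tyr averaged 24.8 ± 2.45 CPM with testosterone and EGCG and 42.2 ± 6.62 CPM with testosterone, a ratio of 0.585 (adjusted p 0.00441, log2 fold change −0.77, SE 0.14), and passed in all 18 alternative fits.

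Of the other genes that fell, pmela averaged 164 ± 22.3 CPM with testosterone and EGCG and 240 ± 27.7 CPM with testosterone (adjusted p 0.00906, log2 fold change −0.55, SE 0.11). Its adjusted p was 0.0533 without the EGCG library of clutch 2. The log2 fold changes of tyrp1a and tyrp1b were −0.51 (SE 0.12, adjusted p 0.0197) and −0.49 (SE 0.11, adjusted p 0.0142). Both calls were lost without the testosterone library of clutch 2 (0.0963 for tyrp1a and 0.0706 for tyrp1b), without the EGCG library of clutch 1 (0.08 and 0.0519) and without that of clutch 2 (0.0949 and 0.0785). The values for slc24a5, dct, slc45a2 and mitfa were −0.68, −0.40, −0.38 and −0.50, with adjusted p 0.0772, 0.0781, 0.101 and 0.134. The number of calls was 1 without the EGCG library of clutch 2, 2 without that of clutch 1 or the testosterone library of clutch 2, and 6 without the testosterone library of clutch 4 or the calindol library of clutch 1, where dct and slc24a5 passed too.

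With calindol added to testosterone, 3 of the 10 genes rose against testosterone alone, tyrp1b, pmela and slc24a5, beside 11% of all genes tested that rose (25.8% passed in either direction). Of genes with a mean of at least 100 CPM, which include tyrp1b and pmela, 20.7% rose and 28.9% fell. At 10 to 100 CPM, the range of slc24a5, 13.1% rose and 20.8% fell. The gene tyrp1b averaged 315 ± 35.8 CPM with testosterone and calindol and 249 ± 33.8 CPM with testosterone (adjusted p 0.0342, log2 fold change 0.34, SE 0.11). For pmela the log2 fold change was 0.32 (SE 0.11, adjusted p 0.0465) and for slc24a5 0.65 (SE 0.22, adjusted p 0.0416). For tyrp1b and pmela the libraries of the groups did not overlap, beside 17.3% of all genes that were so separated upward, and for slc24a5 they did. With clutch as a block pmela and slc24a5 lost their calls (adjusted p 0.0594 and 0.0558).

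None of these 3 calls remained in the fit of the 6 libraries compared (adjusted p 0.0701 for tyrp1b, 0.0812 for pmela and 0.0986 for slc24a5). The same held without the testosterone library of clutch 1 (0.0581, 0.0713 and 0.0916), without that of clutch 4 (0.13, 0.162 and 0.161) and without the calindol library of clutch 1 (0.128, 0.181 and 0.168). Without the DMSO library of clutch 1 or 4, which belongs to neither group, 1 call was left. The gene pmela also lost its call without the DMSO library of clutch 2 (0.0624) or the EGCG library of clutch 1 (0.0547), and slc24a5 without the calindol library of clutch 2 (0.0684) or the EGCG library of clutch 2 (0.0527). The gene tyr had a log2 fold change of 0.13 (95% interval −0.15 to 0.41) and slc45a2 one of 0.15 (−0.15 to 0.45). The values for tyrp1a and tfec were below 0, at −0.13 (−0.39 to 0.13) and −0.44 (−0.88 to −0.0003, adjusted p 0.135). Without the calindol library of clutch 1, which held the highest tfec level of its group, tfec passed as lower (log2 fold change −0.71, adjusted p 0.0168).

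The direct comparison of the antagonists, both with testosterone, gave the most calls, 8 of 10 genes lower with EGCG than with calindol, beside 22% of all genes tested that were lower (43.1% passed in either direction). The genes that did not pass were oca2 and tfec. For the same 8 genes every EGCG library lay below every calindol library, beside 28.7% of all genes. The median log2 fold change of the 10 genes was −0.77, beside −0.06 over all genes. The doses differed, at 100 µM EGCG and 5 µM calindol, so this compares the exposures as given and not the compounds at matched doses.

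The gene slc24a5 differed most, at 7.76 ± 0.945 CPM with testosterone and EGCG and 19.7 ± 4.83 CPM with testosterone and calindol, a ratio of 0.398 (adjusted p 0.000359, log2 fold change −1.33, SE 0.23). The gene tyr averaged 24.8 ± 2.45 CPM with EGCG and 46.3 ± 7.95 CPM with calindol (adjusted p 0.000103, log2 fold change −0.91, SE 0.14). For pmela and tyrp1b the log2 fold changes were −0.87 (SE 0.11, adjusted p 2.86e-05) and −0.83 (SE 0.11, adjusted p 4.07e-05). For dct and slc45a2 they were −0.71 (SE 0.14, adjusted p 0.000867) and −0.53 (SE 0.14, adjusted p 0.00787). These 6 genes passed in all 18 alternative fits.

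The remaining calls were nearer the threshold. The log2 fold change of mitfa was −0.58 (SE 0.21, adjusted p 0.0328), and it lost its call without the calindol library of clutch 1 (0.1) or 2 (0.061), without the EGCG library of clutch 2 (0.145) or 4 (0.083), and in the fit of the 6 libraries compared (0.088). That of tyrp1a was −0.37 (SE 0.12, adjusted p 0.0257), lost without the calindol library of clutch 1 (0.0855) or the EGCG library of clutch 1 (0.0739) or 2 (0.0946). The gene oca2 passed only without the EGCG library of clutch 4 (adjusted p 0.0167). More genes at high levels were lower with EGCG: of the 1809 genes with a mean of at least 100 CPM, which include pmela and tyrp1b, 39% were lower and 31.2% higher.

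**Figure D3:**
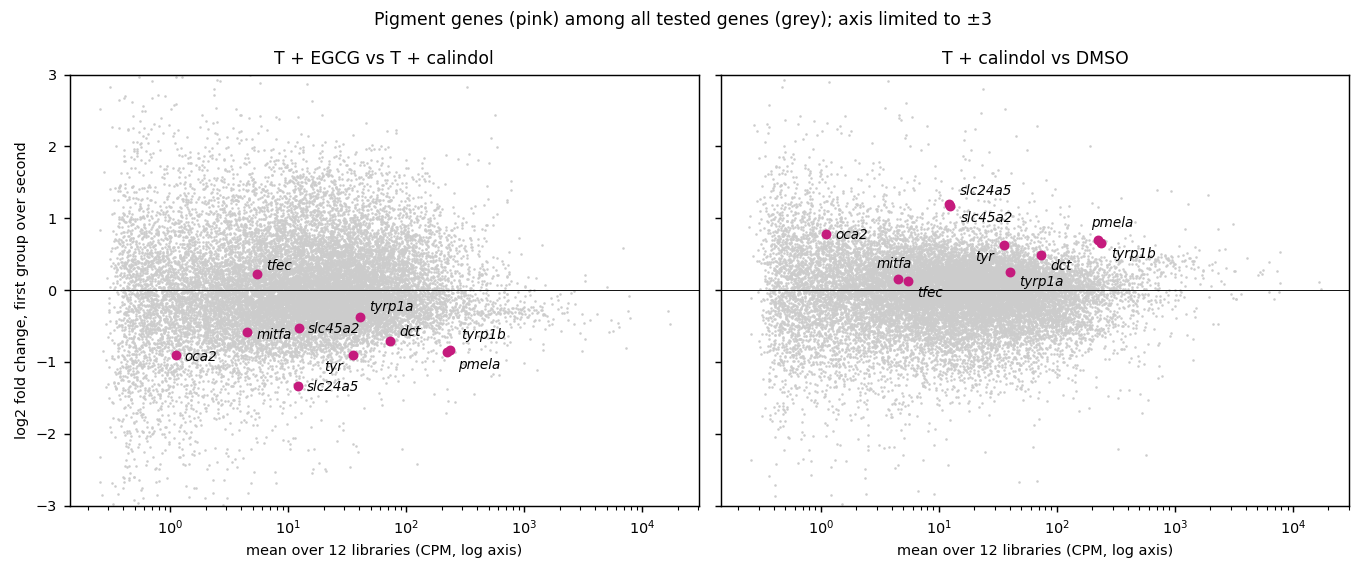
Log2 fold change (vertical axis, first group over second, limited to ±3) against the mean level over 12 libraries (CPM, log axis) for all tested genes (grey) and the 10 pigment genes (pink). Against calindol, 9 of the 10 pigment genes lie below 0 with EGCG, and all 10 lie above 0 for calindol against DMSO.

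The share of each pigment gene within the 10 was described by its counts as a percentage of the summed counts of the other 9, a measure chosen after the values were seen and given without a test. It does not depend on the scaling of libraries. For slc45a2 this was 2.33%, 2.61% and 2.24% with testosterone and EGCG, 1.94%, 1.85% and 2.11% with testosterone and calindol, 2.15%, 1.88% and 2.55% with testosterone, and 1.01%, 1.57% and 1.49% in DMSO. It was the only one of the 10 genes for which all libraries of all 3 exposures lay on the same side of the DMSO libraries. With calindol, pmela, slc24a5 and slc45a2 lay above DMSO in every library by this measure, and mitfa, tfec and tyrp1a below. With testosterone alone slc45a2 lay above and dct and tyrp1b below, and with EGCG slc45a2 and tfec lay above. The measure is defined within the 10 genes only, so no share over all genes stands beside these separations. Most of the summed counts came from tyrp1b and pmela, and the mean CPM of mitfa, tfec and tyrp1a with calindol was above that in DMSO. For tyrp1a it was 5.44% ± 0.217 with testosterone and calindol and 7.23% ± 0.438 in DMSO (SD, n = 3 each).

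**Figure D4:**
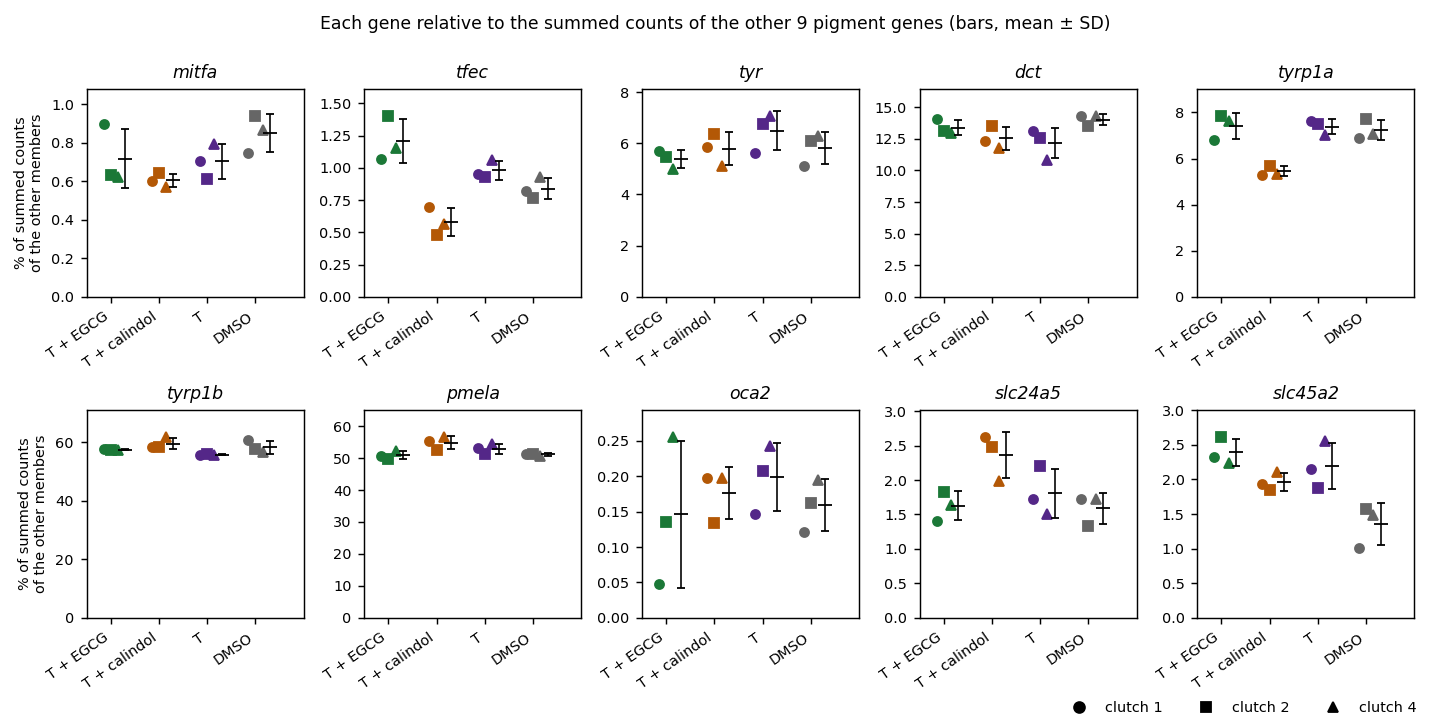
Counts of each pigment gene as a percentage of the summed counts of the other 9 (vertical axes, linear from 0) in the 4 groups (T, testosterone); points are libraries, shapes are clutches, and bars give the mean ± SD of 3 libraries. For slc45a2 the exposed libraries lie at 1.85% to 2.61%, above the DMSO libraries at 1.01% to 1.57%.

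Other genes of pigment cells were taken from 5 lists, chosen for their known roles but with earlier results of these data known. Of 86 symbols in all, 82 were in the table and 75 were tested. With testosterone against DMSO 4 rose and 1 fell, beside 2.93% and 3.39% of all genes. These 5 calls were 3 without the DMSO library of clutch 2, and 6 at most when 1 library was left out. With testosterone and calindol against DMSO 18 rose and 3 fell, beside 11.5% and 15.9% of all genes. With testosterone and EGCG against DMSO 3 rose and 8 fell, beside 7.69% and 9.33% of all genes, so the lower calls were near the share over all genes. The number of calls there was 5 and 6 without the DMSO library of clutch 1 or 2 and 6 without the EGCG library of clutch 2. It was 13 without the calindol library of clutch 1, which belongs to neither group. With EGCG against calindol, 5 were higher and 28 lower, beside 21.1% and 22% of all genes. Their median log2 fold change was −0.27 in that comparison, beside −0.06 over all genes.

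Of 13 tested melanophore receptors, ligands and hormones, 3 rose with testosterone and calindol against DMSO, beside 11.5% of all genes, and 2 fell with testosterone and EGCG against DMSO, beside 9.33%. With EGCG against calindol 1 was higher and 4 were lower, beside 21.1% and 22% of all genes. In so short a list none of these counts stood far from the share over all genes. The gene kita, for the receptor tyrosine kinase that melanophores need to migrate and survive, had 19.1, 15.2 and 17.8 CPM with testosterone and EGCG, 32.4, 27.3 and 28.1 CPM with testosterone and calindol, 21.0, 21.9 and 21.3 CPM with testosterone, and 22.1, 24.1 and 21.6 CPM in DMSO. Against DMSO its log2 fold change was −0.39 with EGCG (adjusted p 0.0252) and 0.37 with calindol (adjusted p 0.0147), and between EGCG and calindol −0.76 (adjusted p 5.96e-05). The prohormone gene pomca, a source of melanocyte-stimulating hormone, averaged 3.60 CPM with testosterone and calindol and 1.23 CPM in DMSO (log2 fold change 1.54, adjusted p 0.00174). The endothelin receptor gene ednrba, which iridophores and melanophores use, rose with calindol against DMSO by 0.40 on the log2 scale (adjusted p 0.0415).

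The melastatin channel genes on this list did not follow kita, and in whole embryos the cells that gave their reads cannot be told. The gene trpm1b had 63.4, 63.8 and 60.6 CPM with testosterone and EGCG, 39.5, 38.3 and 36.7 CPM with testosterone and calindol, 41.6, 30.2 and 51.1 CPM with testosterone, and 47.2, 48.4 and 47.3 CPM in DMSO. Its EGCG libraries lay above all others, with a log2 fold change of 0.71 against calindol (adjusted p 0.000587) and 0.61 against testosterone alone (adjusted p 0.0111). The gene trpm1a had 0.446 to 1.30 CPM with testosterone and EGCG, 0.759 to 1.57 CPM with testosterone and calindol, 0.874 to 1.27 CPM with testosterone, and 1.81 to 2.75 CPM in DMSO, above all exposed libraries. It fell with EGCG against DMSO by 1.41 on the log2 scale (adjusted p 0.0308). The signalling antagonist gene asip1 rose with calindol against testosterone alone by 0.94 (adjusted p 0.0315).

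Of 19 tested genes of melanosome assembly and transport, 5 rose with testosterone and calindol against DMSO, beside 11.5% of all genes. With EGCG against calindol 7 were lower and 1 higher, beside 22% and 21.1% of all genes. The gene hps1, for a subunit of a complex in the making of lysosome-related organelles, had 19.9, 18.3 and 22.5 CPM with testosterone and EGCG, 36.9, 30.7 and 32.0 CPM with testosterone and calindol, 25.0, 23.9 and 24.2 CPM with testosterone, and 24.5, 24.2 and 23.9 CPM in DMSO. Its calindol libraries lay above all others (log2 fold change against DMSO 0.46, adjusted p 0.00283). The small GTPase gene rab32a, which brings cargo to the melanosome, rose by 0.84 (adjusted p 0.000636) and vps18, for a tethering complex of endosomes, by 0.39 (adjusted p 0.000652) in the same comparison. The products of vps18 and hps1 serve other organelles and cells too. The gene slc24a4a of this list went the other way. It had 13.7 to 14.5 CPM with testosterone and EGCG and 7.81 to 10.6 CPM with testosterone and calindol. Its levels were 11.4 to 15.1 CPM with testosterone and 12.1 to 12.8 CPM in DMSO, so the calindol libraries lay below all others.

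Of 19 tested xanthophore genes, 14 were lower with EGCG than with calindol, beside 22% of all genes tested, and 6 fell with EGCG against testosterone alone, beside 5.59% of all genes. These 6 were all the lower calls in that comparison among the 75 genes of the 5 lists. All calls among the 75, which were 8, came to 2 without the EGCG library of clutch 2, 3 without that of clutch 1 or the testosterone library of clutch 2, and 13 without the calindol library of clutch 1. The gene gch2, for the first enzyme of pteridine synthesis in pigment cells, had 80.0, 92.1 and 95.2 CPM with testosterone and EGCG, 255, 195 and 156 CPM with testosterone and calindol, 165, 179 and 99.9 CPM with testosterone, and 150, 172 and 150 CPM in DMSO. Its log2 fold change was −0.73 for EGCG against testosterone (adjusted p 0.0252) and −0.82 for EGCG against DMSO (adjusted p 0.0101). The xanthophore oxidase gene aox5 had 21.8, 20.6 and 24.7 CPM with testosterone and EGCG and 38.7 to 62.9 CPM in the other 9 libraries, with a log2 fold change of −1.04 for EGCG against DMSO (adjusted p 0.000382).

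With testosterone and calindol against DMSO, 7 genes of the xanthophore list of 19 rose and 2 fell, beside 11.5% and 15.9% of all genes. The highest were paics, a purine synthesis gene used in all dividing cells, with a log2 fold change of 1.38 (adjusted p 3.19e-06), and csf1a, which was named after its values were seen (0.98, adjusted p 0.00109). The liver enzyme gene pah was also among them (0.84, adjusted p 4.99e-06), as was scarb1, for the receptor that takes up carotenoids (0.56, adjusted p 0.00109). The gene paics also rose with testosterone (0.77, adjusted p 0.000657) and with EGCG (0.87, adjusted p 0.000201) against DMSO. In the other direction, sprb of the same list averaged 2.73 CPM with testosterone and calindol and 4.85 CPM in DMSO. For rgs2 the means were 0.86 and 2.64 CPM, and both genes were named after their values were seen. Their means with testosterone and EGCG were near those with calindol, at 2.68 CPM for sprb and 0.837 CPM for rgs2. With testosterone alone sprb averaged 5.15 CPM and rgs2 0.641 CPM. Of 14 tested iridophore and purine genes, 3 rose and 0 fell with calindol against DMSO, beside 11.5% and 15.9% of all genes. The median of the list was 0.12 on the log2 scale, beside 0.01 over all genes. Among the 3 was tpte (log2 fold change 1.24, adjusted p 6.47e-05).

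Of 12 other lineage factor genes, 2 were higher and 1 lower with EGCG than with calindol, beside 21.1% and 22% of all genes. With testosterone and calindol against DMSO 1 rose and 1 fell, beside 11.5% and 15.9% of all genes. None of these counts stood above the share over all genes. Among the genes called, tfap2e, an AP-2 factor of the neural crest and melanophores, moved opposite to the pigment genes. It averaged 34.4 CPM with testosterone and EGCG, 13.4 CPM with testosterone and calindol, 20.8 CPM with testosterone and 25.7 CPM in DMSO. Its log2 fold change was 1.36 for EGCG against calindol (adjusted p 3.52e-06) and −0.94 for calindol against DMSO (adjusted p 0.000184). The homeobox gene alx4a, used in iridophores, had a log2 fold change of −0.43 for EGCG against calindol (adjusted p 0.00119).

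**Figure D5:**
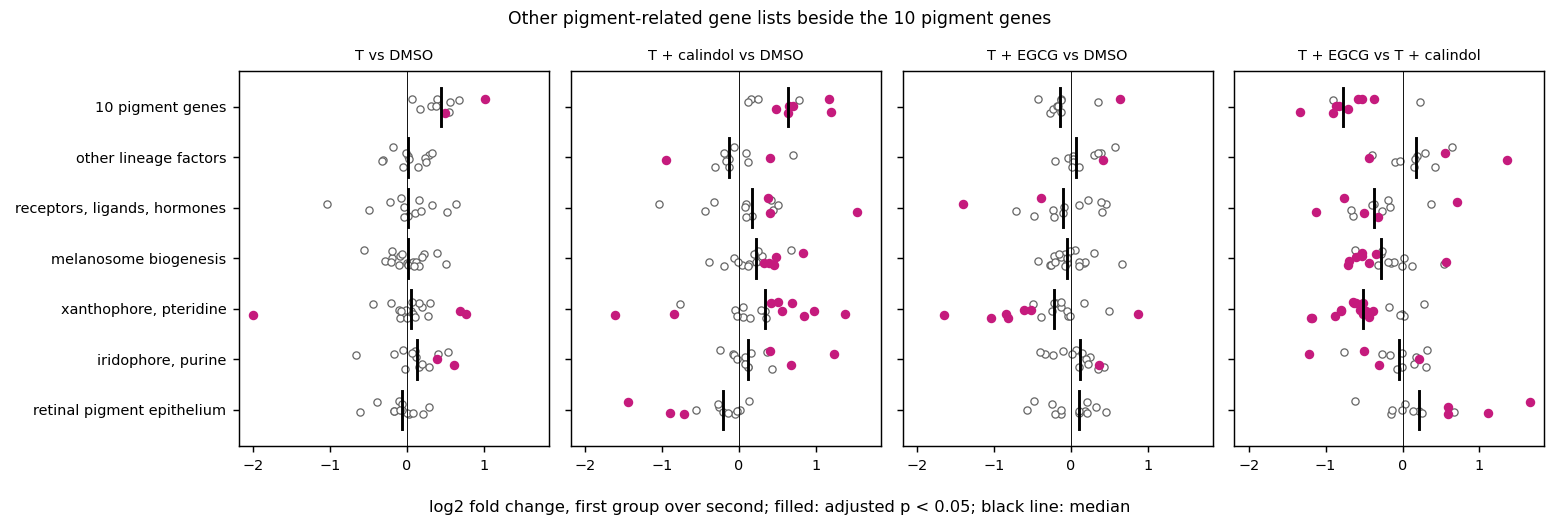
Log2 fold change (horizontal axis, first group over second) of the 10 pigment genes and of the tested genes of 6 lists in 4 comparisons (T, testosterone); each point is a gene, filled where its adjusted p was under 0.05, and the black line is the median of the list. For EGCG against calindol the medians are −0.77 for the 10 pigment genes, −0.51 for the xanthophore list and 0.21 for the retinal pigment epithelium list.

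Of 13 tested genes of the retinal pigment epithelium, 3 fell with testosterone and calindol against DMSO, beside 15.9% of all genes tested. With EGCG against calindol 4 were higher, beside 21.1% of all genes, so neither count of so short a list stood far from the share over all genes. The visual cycle gene rpe65a had 70.3, 50.5 and 56.8 CPM with testosterone and EGCG, 31.1, 41.3 and 45.2 CPM with testosterone and calindol, 63.3, 58.1 and 73.7 CPM with testosterone, and 72.1, 51.8 and 68.0 CPM in DMSO. Its calindol libraries lay below all others (log2 fold change against DMSO −0.71, adjusted p 0.0035). The eye and brain factor gene otx2b had a log2 fold change of −0.90 with calindol against DMSO (adjusted p 1.28e-05).

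The summed level of the 14 genes of the pigment epithelium list was 340.0 to 381.5 CPM with testosterone and EGCG, 261.8 to 289.4 CPM with testosterone and calindol, 294.1 to 347.4 CPM with testosterone, and 324.0 to 350.0 CPM in DMSO. Photoreceptor genes summed to 3314 to 4201 CPM with EGCG, 1142 to 2773 CPM with calindol, 1160 to 3477 CPM with testosterone, and 4421 to 4559 CPM in DMSO. With calindol against DMSO 6 of 9 photoreceptor and 3 of 5 lens genes fell, beside 15.9% of all genes. For EGCG against calindol 4 of 9 photoreceptor and 4 of 5 lens genes were higher, beside 21.1% of all genes. In that comparison 4 of 5 skeletal muscle genes were lower, beside 22% of all genes, where the symbol myhz1.1 stands for 2 of the 5 identifiers. Of 5 liver genes 2 were higher and 2 lower. Of 5 tested Schwann cell and glia genes, 3 fell with testosterone against DMSO, beside 3.39% of all genes, namely plp1b, erbb3b and mbpa, with log2 values of −0.86, −0.60 and −0.58 and adjusted p 0.0207, 0.0212 and 0.0409. The part of these shifts in the pigment gene results was not tested.

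Genes outside the 10 were ranked by how closely their log2 CPM followed the mean standardised level of the 10 over all 12 libraries, among 18344 genes with a mean of at least 1 CPM. The libraries share their groups, clutches and scaling, so the coefficients are a description. Genes with only a clone, accession or locus identifier, or no symbol, were ranked but are not named. The closest of the others were abcb5, which encodes an ATP-binding cassette transporter (Pearson r 0.96, and 0.86 after removal of group means), and ahnak, for a large scaffold protein (0.96 and 0.85). Next were plcd1b, a phospholipase C gene (0.96 and 0.90), serpinb14, a serpin gene (0.95 and 0.84), pla2g4aa, a phospholipase A2 gene (0.95 and 0.83), syne3 (0.95 and 0.77), fap (0.95 and 0.76) and arcn1a (0.95 and 0.75). The gene abcb5 averaged 116 ± 17.3 CPM with testosterone and EGCG, 208 ± 34.0 CPM with testosterone and calindol, 212 ± 27.3 CPM with testosterone, and 135 ± 7.86 CPM in DMSO. It rose with testosterone by 0.65 on the log2 scale (adjusted p 0.00623) and fell with EGCG against testosterone alone by 0.87 (adjusted p 0.00207). The gene was picked for its likeness to the 10 in these same libraries, so both values are a description and no separate support. Among the 10 genes themselves, correlation with the mean of the others was 0.96 for pmela, 0.94 for tyr and tyrp1b, 0.63 for mitfa and 0.21 for tfec.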

How the data were processed

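RNA sequencing counts of 12 libraries were used. Per the labels' protocols, poly(A) RNA went into directional libraries. Per the submitters' processing notes the authors used Trim Galore 0.6.10, STAR 2.7.1a, featureCounts and the genome build GRCz11. The deposited values are raw counts per gene. Gene positions and sequences were not used here. Genes were named by the symbols in the table.

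From the counts, genes were kept by filterByExpr (minimum count 10), leaving 20237, and tested with edgeR 4.0.16 in R 4.3.3. All 12 were fitted together by quasi-likelihood, with 1 mean for each group and TMM scaling. Tests were two-sided, with Benjamini-Hochberg adjustment over all genes tested and a threshold of 0.05. Log2 fold changes put the first-named group over the second. The standard error (SE) is the log2 fold change divided by the root of F, and 95% intervals use it. Across genes the common biological coefficient of variation came to 13.1%. The test was checked on simulated counts.

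The labels give a clutch number, shared across groups, which pairs the libraries. With group means removed, same-clutch libraries of different groups correlated at −0.086 to 0.10 across genes (mean 0.012, 18 pairs). Libraries of different clutches and groups correlated at −0.23 to 0.22 (mean −0.0058, 36 pairs). Removal of group means ties this mean to the same-clutch mean with opposite sign, so it is no separate reference. Clutch as a block was an alternative. Each library of a group came from another clutch, so p-values measure the spread between libraries. Clutch and library preparation cannot be told apart in it.

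The genes, lists and tests were chosen with earlier results of these data known. The text names all 10 genes, up to 6 genes a list with the smallest p over the 6 comparisons, and the 8 named genes of closest pattern. The xanthophore list genes csf1a, sprb and rgs2 were named besides, after their values were seen. Alternatives were DESeq2 1.42.0 (size factors, or its own test), no filter, a minimum count of 50, only the 6 libraries compared, the clutch block, a log2 fold change of at least 1, and leaving out each library.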

Additional observations from a re-analysis of the deposited data

How the results depend on the processing

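Of the 10 pigment genes, the number past the threshold for testosterone against DMSO was 2, and 4 with the DESeq2 test, 1 with the replicate block (clutch), 1 when a log2 fold change of 1 or more was also required, and 1 to 5 when 1 library was left out. For testosterone and calindol against DMSO it was 6, with 2 at the fold threshold. For testosterone and EGCG against DMSO it was 1, with 2 when the fit held only the 6 libraries in question and 0 at the fold threshold. For EGCG against testosterone alone it was 4, with 0 at the fold threshold and 1 to 6 when 1 library was left out. For calindol against testosterone alone it was 3, with 0 in the fit of 6 libraries, 1 with the replicate block, 0 at the fold threshold and 0 to 4 when 1 library was left out. For EGCG against calindol it was 8, with 1 at the fold threshold and 6 to 8 when 1 library was left out. Fits with fewer libraries both lost and gained calls, and the cause of these shifts was not tested. The block changed no other call of a pigment gene.

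Log2 fold changes that turned sign belonged to genes that did not pass in either fit. Without the calindol library of clutch 1 they were −0.15 for tfec against DMSO (0.29 at most when 1 library was left out), and −0.011 for mitfa (0.19 at most) and −0.094 for oca2 (0.31 at most) against testosterone. For oca2 the calindol value against testosterone was −0.019 without the testosterone library of clutch 1. Its EGCG value against DMSO was 0.042 without the DMSO library of clutch 4, 0.19 and 0.070 without the EGCG library of clutch 1 or 2, and −0.96 without that of clutch 4. With DESeq2 size factors the median of all genes moved by at most 0.0298 on the log2 scale. At its depth oca2, with 2 to 35 counts, had a standard error of up to 0.488 on the log2 scale.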
